A study of Sus scrofa with 9 samples.

Results

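Splicing factor and snRNP genes are the genes whose protein products find introns in new transcripts and build the machine that removes them. They were taken as every row of the deposited count table whose gene symbol begins with SNRP, SF3A, SF3B, U2AF, SRSF or HNRNP, which gave 40 of 23507 genes: 7 SNRP, 3 SF3A, 5 SF3B, 3 U2AF, 10 SRSF and 12 HNRNP genes. All 40 passed the filter on low counts that left 15012 genes for testing. The table also holds 11 relatives with no symbol in its name column, such as SNRPD2, SNRPD3 and HNRNPA1, which were named from their identifiers or descriptions and are given separately.

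Introns are removed by the spliceosome, which assembles from small nuclear ribonucleoproteins (snRNPs), each a small nuclear RNA with its proteins. Most snRNPs carry a ring of Sm proteins, the products of the SNRPB, SNRPD and SNRPE to SNRPG genes, and each also has proteins of its own. The U2AF dimer marks the end of the intron, the SF3A and SF3B complexes of the U2 snRNP hold the branch site, SR proteins (SRSF genes) mostly favour the use of nearby splice sites, and heterogeneous nuclear ribonucleoproteins (HNRNP genes) coat the transcript and often oppose them. A fully grown oocyte makes little new RNA, so the mRNAs measured for these genes at the end of maturation belong largely to a stored pool whose poly(A) tails are lengthened and shortened by the cell.

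Polyadenylated RNA was measured in oocytes of the pig, Sus scrofa, that had reached metaphase II (MII), where the mature egg waits for fertilisation. HS_Lasp oocytes were kept at 41.5 °C for 24 h from the germinal vesicle stage with L-Asp (usually L-aspartic acid), and then at 38.5 °C until MII. Doses of 0.5, 1.0 and 1.5 mmol/L are listed, and the sequenced one is not named. HS oocytes had the same heat without L-Asp, and control oocytes stayed at 38.5 °C. All groups were labelled wild type, were collected as oocytes inside compact layers of cumulus cells and were matured in culture, with 3 libraries a group from 25 oocytes a group, and no label ties the libraries to different animals or culture dishes. A p-value therefore measures the spread between libraries, which may be technical. In the main edgeR test this spread came from the heated libraries alone, because the control entered as 1 averaged library (below). It was taken to hold for control too, which was not measured.

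Total counts per library were 41693395 to 49008681 in HS_Lasp, 46198885 to 53327419 in HS and 54965064 to 58361475 in control. The 3 control libraries differed from each other far less than the heated libraries did. The median index of dispersion (observed over Poisson variance of the difference, 1 for counting noise alone) was 5.19 to 5.22 in control. It was 79.4 to 84.9 within HS_Lasp and 109 to 119 within HS. In control, 604 to 657 genes a library had 4 counts, against 318 to 351 with 3 and 216 to 235 with 5. Whether such steps in the counts account for the excess over 1 was not tested. Because of this likeness, the mean of the 3 control libraries was used as 1 control library, which has no SD. Each statement that a heated group lies above or below control is thus set against a single value. The share of counts from mitochondrial genes was 5.30, 9.47 and 9.29% in HS_Lasp, 3.09, 5.18 and 14.5% in HS, and 10.0 to 10.1% in control. All 17 oocyte markers in the table were above 0 in every library, with sums of 20011 to 23315 CPM (counts brought to the same total in each library) in HS_Lasp, 15915 to 20356 CPM in HS and 31844 CPM in control. BTG4 made up 15798 CPM of the control sum, so the sums do not speak for all 17. In all HS_Lasp libraries 5 of the 17 lay above control and 7 below it (all tested genes: 19% and 26%). In all HS libraries 4 lay above and 8 below (all tested genes: 17.3% and 25%). Markers of cumulus and granulosa cells summed to 447 to 564 CPM in HS_Lasp, 389 to 514 CPM in HS and 407 CPM in control. Much of the control sum was VCAN at 133 CPM and KITLG at 102 CPM, so these sums do not speak for all the markers. Of 25 such markers in the table, 7 were at 0 in each HS_Lasp library, 6 to 9 in the HS libraries and 8 in control. Of the 18 tested, 8 lay above control and 6 below it in all HS_Lasp libraries, where 19% of all tested genes lay above and 26% below, and 9 lay above and 2 below in all HS libraries, where 17.3% lay above and 25% below. The cumulus marker PTX3 was at 0 in all libraries. CYP11A1 had 1.32, 7.80 and 0.687 CPM in HS_Lasp, 5.98, 6.37 and 15.1 CPM in HS, and 0.039 CPM in control. GJA1 had 5.03, 1.60 and 7.03 CPM in HS_Lasp, 6.97, 7.15 and 13.4 CPM in HS, and 0.80 CPM in control. FST and PGR lay below control in every heated library. These markers were picked after their values were seen, and the part of cumulus RNA in the results below was not tested. Oligo(dT) priming and bulk measurement mean that tail length, RNA per oocyte and the mix of cells cannot be told apart.

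No splicing gene passed the test in any comparison. The quasi-likelihood test of edgeR, with p-values adjusted by Benjamini-Hochberg, called 0 of the 40 genes at an adjusted p under 0.05 for HS against control, for HS_Lasp against HS and for HS_Lasp against control, where the share called among all 15012 genes was also 0%. DESeq2, run without the filter on low counts on 22258 genes, called 172, 183 and 64 genes in these comparisons, and 0 of the 40 in each. Its shares of 0.773, 0.822 and 0.288% are over those 22258 genes, so they do not compare directly with the edgeR shares. With the 3 control libraries entered as replicates, edgeR called 433, 2 and 269 genes, shares of 2.88, 0.0133 and 1.79%, and of the 40 it called 0, 0 and 2 (SNRPF and HNRNPH3). At an unadjusted p under 0.05 in the edgeR test, 0 of the 40 were reached for HS against control, where 3.86% of all genes were (1.96% higher, 1.9% lower), and 0 for HS_Lasp against HS, where 6.61% were (3.52% higher, 3.1% lower). For HS_Lasp against control, 4 of the 40 reached it, 1 higher and 3 lower, against 3.22% of all genes (1.63% higher, 1.6% lower). The values below are therefore given as levels and differences with their errors, and none is a called change.

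By their level per length in control, the 40 genes spanned more than 4 orders of magnitude. Deposited FPKM values (fragments scaled to transcript length and library total) were 100 or more for 4 genes, 10 to 100 for 15, 1 to 10 for 16 and under 1 for 5, and 38 of the 40 lay above the control median of 0.426 FPKM over the 19657 genes with a value above 0. SNRPE, an Sm ring protein gene at chromosome 9, 64560523 to 64567007 in the table's coordinates (genome build not given in the sources used here), was the highest, with 3174 to 3306 FPKM in HS_Lasp, 2456 to 4631 FPKM in HS and 2174 FPKM in control, where it ranked 31 of all genes. SNRPF, another ring gene at chromosome 5, 87604596 to 87622879, had 645 to 829 FPKM in HS_Lasp, 528 to 718 FPKM in HS and 409 FPKM in control. SF3A3, which encodes a subunit of the SF3A complex and lies at chromosome 6, 93951601 to 93976329, had 129 to 166 FPKM in HS_Lasp, 130 to 209 FPKM in HS and 201 FPKM in control. By mean, these 3 genes held the first 3 places in HS and in control, and SF3A3 came behind SNRPG in HS_Lasp. In both heated groups its range met those of its neighbours: SNRPG had 139 to 173 FPKM in HS_Lasp and 150 to 159 FPKM in HS, and SNRPD1 115 to 138 FPKM in HS_Lasp and 119 to 213 FPKM in HS.

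**Figure D1:**
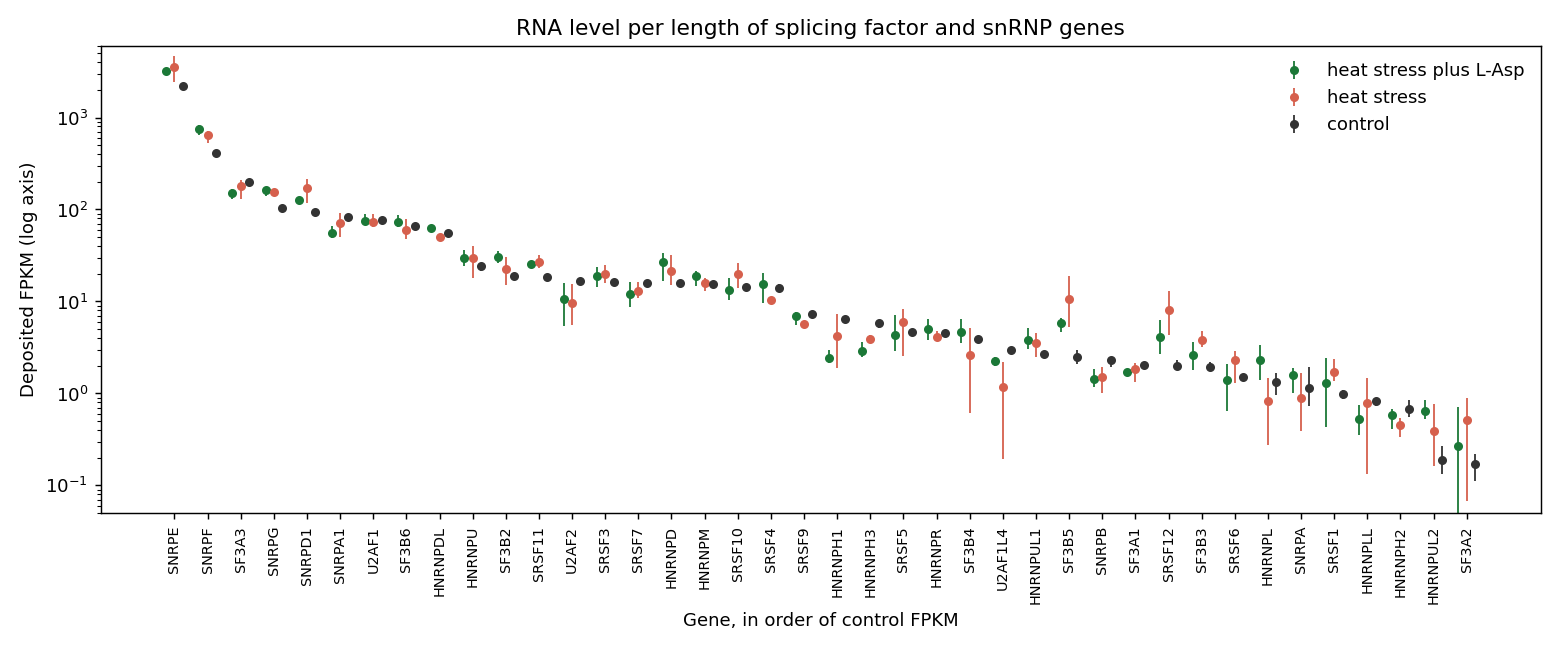
Deposited FPKM (log axis) of the 40 genes in order of their control level, as the mean of 3 libraries with a line from the lowest to the highest; a line to 0, for SF3A2 in HS_Lasp, runs off the axis. SNRPE stands at 2174 FPKM in control and SF3A2 at 0.171 FPKM, with the heated groups spread around the control order.

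Proteins that work in one complex were not matched in RNA level. SNRPB, whose product sits in the same ring as that of SNRPE, had 2.29 FPKM in control, so that SNRPE was 951 times higher per length. In the SF3A complex the SF3A3 level in control was 97.5 times that of SF3A1. The lowest of all 40 in control were HNRNPUL2 with 0.189 FPKM and SF3A2 with 0.171 FPKM. These ratios rest on the gene lengths behind the authors' FPKM, which were not examined.

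The genes of the Sm ring made up most of the RNA counted for the whole set, and this share was higher in every heated library than in control. SNRPB, SNRPD1, SNRPE, SNRPF and SNRPG are the 5 ring genes among the 40, a grouping by known role that was made with the values known. Their summed level, in CPM after scaling by trimmed mean of M values (TMM), was 4210, 4548 and 4528 CPM in HS_Lasp, 5600, 4378 and 3613 CPM in HS, and 3071 CPM in control. The HS libraries were far more spread than the HS_Lasp libraries, which lay inside the HS range, and all 6 lay above control. The sum of the other 35 genes was 2773, 2342 and 2585 CPM in HS_Lasp, 2794, 2527 and 2312 CPM in HS, and 2878 CPM in control, so here all 6 lay a little below control. As a share of the counts of all 40, the ring took 60.3, 66.0 and 63.7% in HS_Lasp, 66.7, 63.4 and 61.0% in HS, and 51.6% in control.

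SNRPE had 1863, 1842 and 1821 CPM in HS_Lasp, 2665, 1839 and 1444 CPM in HS, and 1346 CPM in control. The HS_Lasp libraries were within 1842 ± 20.9 CPM (SD, n = 3) while HS averaged 1982 ± 623 CPM (SD, n = 3), so that the 2 heated groups overlapped fully. The log2 difference was 0.56 ± 0.34 for HS against control and 0.45 ± 0.33 for HS_Lasp against control (SE; edgeR adjusted p = 1 for both). Without HS replicate 1, the highest library, the HS difference was 0.29.

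SNRPF had 1182, 1462 and 1546 CPM in HS_Lasp, 1304, 1195 and 1010 CPM in HS, and 822 CPM in control. All 6 heated libraries were above control and the heated groups overlapped. The log2 difference from control was 0.76 ± 0.29 in HS_Lasp (SE; edgeR unadjusted p = 0.0226, adjusted p = 1) and 0.51 ± 0.28 in HS (adjusted p = 1). With the 3 control libraries entered as replicates the HS_Lasp difference, 0.77, had an adjusted p of 0.0287. SNRPF overlaps CCDC38 on the opposite strand over 11588 bases, and the preparation does not mark the strand, but CCDC38 was counted at 0.428 CPM or less in every library.

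SNRPD1 had 726, 694 and 614 CPM in HS_Lasp, 1147, 891 and 654 CPM in HS, and 546 CPM in control. HS averaged 897 ± 247 CPM and HS_Lasp 678 ± 57.5 CPM (SD, n = 3 each), with overlapping values. The log2 difference of HS from control was 0.72 ± 0.33 (SE; edgeR unadjusted p = 0.0535, adjusted p = 1), and that of HS_Lasp from HS was -0.40 ± 0.23 (adjusted p = 0.752), or -0.19 without HS replicate 1. SNRPG had 437, 547 and 544 CPM in HS_Lasp, 481, 452 and 503 CPM in HS, and 354 CPM in control. The HS spread was small, 479 ± 25.4 CPM (SD, n = 3), and the log2 difference from control was 0.53 ± 0.27 in HS_Lasp and 0.44 ± 0.27 in HS (SE; edgeR adjusted p = 1 for both). SNRPG overlaps PCYOX1 on the opposite strand, which had 5.79 CPM in control. SNRPB lay on the other side of control at a very low level, with 1.95, 3.03 and 2.23 CPM in HS_Lasp, 2.65, 1.50 and 3.35 CPM in HS, and 4.14 CPM in control.

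The ring is completed by the products of SNRPD2 and SNRPD3, which are among the relatives without a symbol. SNRPD2 had 88.7, 94.6 and 73.1 CPM in HS_Lasp, 96.2, 142 and 104 CPM in HS, and 46.5 CPM in control. All 6 heated libraries lay above control, with a log2 difference of 1.29 ± 0.35 for HS (SE; edgeR unadjusted p = 0.0037, adjusted p = 0.675). DESeq2 put the same difference at 1.33 with an adjusted p of 0.0205, and the edgeR fit with 3 control replicates at 1.30 with an adjusted p of 0.00556. The SNRPD2 call thus depends on the fit, and DESeq2 differed from the main fit in the test and in the filter on low counts. SNRPD3 had 161, 179 and 137 CPM in HS_Lasp, 198, 172 and 149 CPM in HS, and 138 CPM in control, and 1 HS_Lasp library lay just under control.

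**Figure D2:**
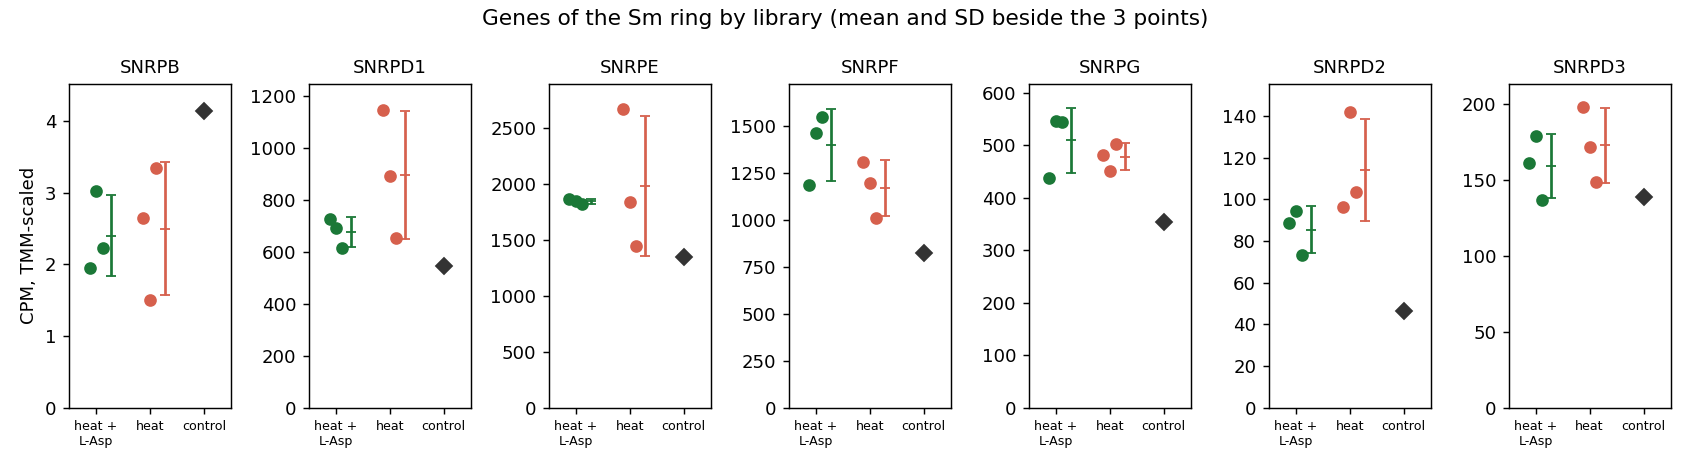
TMM-scaled CPM of the 7 genes of the Sm ring, with 1 point per library for heat stress plus L-Asp and heat stress, bars for mean and SD (n = 3), and a diamond for the averaged control; each panel has its own axis from 0. SNRPE, SNRPF, SNRPD1, SNRPG and SNRPD2 lie above control in all 6 heated libraries and SNRPB below it.

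Outside the ring, the SNRP genes and their relatives lay on different sides of control. SNRPA1 encodes a protein particular to the U2 snRNP and had 346, 265 and 266 CPM in HS_Lasp, 499, 348 and 280 CPM in HS, and 484 CPM in control. All 3 HS_Lasp libraries were below control, and the HS libraries lay on both sides of it. The log2 difference was -0.72 ± 0.33 for HS_Lasp against control (SE; edgeR unadjusted p = 0.0484, adjusted p = 1) and -0.36 ± 0.24 for HS_Lasp against HS (adjusted p = 0.793), which was -0.10 without HS replicate 1. SNRPA, a protein gene of the U1 snRNP, was low, with 1.18, 2.14 and 2.23 CPM in HS_Lasp, 0.466, 1.77 and 0.759 CPM in HS, and 1.46 CPM in control. Among relatives, SNRPC, another U1 protein gene, had 680, 834 and 856 CPM in HS_Lasp, 508, 673 and 814 CPM in HS, and 955 CPM in control. SNRPB2, a U2 protein gene, had 173, 243 and 202 CPM in HS_Lasp, 217, 247 and 211 CPM in HS, and 160 CPM in control. SNRPC was thus below control and SNRPB2 above it in every heated library.

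The SF3A complex was represented mainly by SF3A3, which had 377, 293 and 361 CPM in HS_Lasp, 458, 431 and 307 CPM in HS, and 500.4 CPM in control. All 6 heated libraries lay below control and the heated groups overlapped, with a log2 difference from control of -0.54 ± 0.29 in HS_Lasp (SE; edgeR adjusted p = 1). SF3A1, which also binds the U1 snRNP, had 8.39, 8.67 and 7.53 CPM in HS_Lasp, 10.4, 8.67 and 6.63 CPM in HS, and 10.7 CPM in control, again with every heated library below control. SF3A2 had 0, 0.243 and 2.08 CPM in HS_Lasp, 0.203, 2.28 and 1.77 CPM in HS, and 0.546 CPM in control. A level under 0.233 to 0.284 CPM, depending on the library, is less than 3 fragments if a fragment gives 4 counts. SF3A2 was at or under this floor in part of the libraries and was not measurable there. SF3A2 also overlaps AMH on the same strand over 1350 bases, and AMH was counted at 0.546 CPM or less in every library, so SF3A2 reads are uncertain.

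The SF3B complex grips the branch site together with SF3A, and its genes had no common direction. SF3B2 had 216, 191 and 263 CPM in HS_Lasp, 114, 204 and 166 CPM in HS, and 151 CPM in control. HS_Lasp lay above control in all 3 libraries and overlapped HS, with a log2 difference of 0.47 ± 0.25 from HS (SE; edgeR adjusted p = 0.743) and 0.56 ± 0.36 from control (adjusted p = 1). Without HS replicate 1 the difference from HS was 0.27. SF3B3 had 21.8, 11.0 and 15.3 CPM in HS_Lasp, 29.5, 17.4 and 21.9 CPM in HS, and 12.8 CPM in control, so all HS libraries were above control while HS_Lasp lay on both sides. SF3B6, whose product touches the branch site adenosine, had 241, 322 and 251 CPM in HS_Lasp, 203, 159 and 303 CPM in HS, and 272 CPM in control. SF3B4 had 6.93, 6.57 and 12.1 CPM in HS_Lasp, 1.15, 3.45 and 9.75 CPM in HS, and 7.88 CPM in control, a wide HS spread at a low level. SF3B5, the smallest subunit, had 1.42, 2.02 and 1.99 CPM in HS_Lasp, 2.35, 5.22 and 1.71 CPM in HS, and 0.839 CPM in control. The relative SF3B1, the core of the complex, had 113, 135 and 83.6 CPM in HS_Lasp, 151, 105 and 135 CPM in HS, and 164 CPM in control, below control in every heated library.

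All HS libraries lay below control for each of the 3 U2AF genes, a placement that 25% of tested genes shared, and no difference was called. U2AF2, which encodes the large subunit that binds the pyrimidine tract, had 13.8, 27.1 and 41.2 CPM in HS_Lasp, 14.4, 35.4 and 19.9 CPM in HS, and 45.7 CPM in control. Its libraries differed by a factor of about 3 within HS_Lasp, and all 6 lay below control, with a log2 difference of -0.98 ± 0.58 for HS and -0.74 ± 0.59 for HS_Lasp (SE; edgeR adjusted p = 1 for both). The HS_Lasp difference was -0.42 without HS_Lasp replicate 1 and -1.16 without HS_Lasp replicate 3. U2AF1, the small subunit that reads the end of the intron, had 110, 111 and 146 CPM in HS_Lasp, 106, 133 and 108 CPM in HS, and 137 CPM in control. U2AF1L4, a close relative of U2AF1, had 4.84, 6.08 and 5.64 CPM in HS_Lasp, 5.43, 2.44 and 0.506 CPM in HS, and 7.88 CPM in control. U2AF1L4 shares sequence with PSENEN on the opposite strand, which had 16.3 CPM in control, so its reads are uncertain.

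The SR protein genes split. Against control, 7 of 10 SRSF genes had a log2 difference above 0 in HS and 4 of 10 in HS_Lasp, and against HS 2 of 10 did in HS_Lasp, where 50.1, 50.5 and 49% of all tested genes were above 0. SRSF10 encodes a splicing repressor that is switched on by loss of phosphate after heat shock in human cells, and it had 146, 92.3 and 85.2 CPM in HS_Lasp, 216, 139 and 119 CPM in HS, and 125 CPM in control. HS averaged 158 ± 51.5 CPM and HS_Lasp 108 ± 33.2 CPM (SD, n = 3 each), with overlap, and the log2 difference between them was -0.55 ± 0.28 (SE; edgeR unadjusted p = 0.0786, adjusted p = 0.743). It was -0.26 without HS replicate 1 and -0.83 without HS_Lasp replicate 1. SRSF7 had 114, 74.3 and 62.1 CPM in HS_Lasp, 88.4, 103 and 78.6 CPM in HS, and 121 CPM in control. SRSF9 had 42.7, 31.1 and 44.1 CPM in HS_Lasp, 32.5, 26.6 and 35.7 CPM in HS, and 45.4 CPM in control. Every heated library was below control for SRSF7 and for SRSF9, although the HS_Lasp values of SRSF9 met control under median-of-ratios scaling. SRSF9 overlaps GATC on the opposite strand, which had 22.9 CPM in control, so its reads are uncertain.

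SRSF11 had 69.0, 70.7 and 78.0 CPM in HS_Lasp, 67.0, 81.7 and 71.9 CPM in HS, and 56.9 CPM in control. SRSF12, which encodes an antagonist of other SR proteins, had 6.53, 2.81 and 3.50 CPM in HS_Lasp, 4.54, 6.76 and 14.2 CPM in HS, and 2.28 CPM in control. Both genes lay above control in all 6 heated libraries. SRSF4 had 46.1, 28.7 and 61.6 CPM in HS_Lasp, 29.5, 28.1 and 33.6 CPM in HS, and 45.5 CPM in control, so HS was low and narrow and HS_Lasp wide. SRSF3, the smallest SR protein, had 68.1, 85.1 and 52.3 CPM in HS_Lasp, 69.0, 51.9 and 92.4 CPM in HS, and 63.8 CPM in control, and all groups met. SRSF5 and SRSF6 also met in all groups. SRSF1 had 8.29, 3.54 and 19.9 CPM in HS_Lasp, 19.3, 10.1 and 11.5 CPM in HS, and 8.62 CPM in control, so every HS library lay above control while HS_Lasp reached from below it to above it.

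Among the HNRNP genes, HNRNPDL was the 1 gene of all 40 whose HS_Lasp and HS values did not meet; among all tested genes 11.9% did not. HNRNPDL encodes a protein related to the AU-rich element binder HNRNPD, and it had 269, 267 and 262 CPM in HS_Lasp, 200.4, 196 and 223 CPM in HS, and 256 CPM in control. HS lay below control in all libraries and HS_Lasp slightly above it. The log2 difference of HS_Lasp from HS was 0.37 ± 0.18 (SE; edgeR unadjusted p = 0.0661, adjusted p = 0.738), and that of HS from control -0.31 ± 0.25 (adjusted p = 1).

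HNRNPH3 and HNRNPH1 encode proteins that bind runs of G. HNRNPH3 had 24.8, 17.1 and 17.8 CPM in HS_Lasp, 24.2, 26.6 and 27.6 CPM in HS, and 43.1 CPM in control. All 6 heated libraries lay below control, by a log2 difference of -1.11 ± 0.37 in HS_Lasp (SE; edgeR unadjusted p = 0.0120, adjusted p = 1) and -0.72 ± 0.38 in HS (adjusted p = 1), and with 3 control replicates the HS_Lasp difference had an adjusted p of 0.0248. HNRNPH1 had 5.62, 5.84 and 7.91 CPM in HS_Lasp, 19.6, 8.36 and 5.25 CPM in HS, and 18.7 CPM in control. HS_Lasp was narrow and below control, with a log2 difference of -1.54 ± 0.64 (SE; edgeR unadjusted p = 0.0358, adjusted p = 1), while HS spread on both sides of control. HNRNPH2, another gene of this kind, was below control in every heated library at 4.92 CPM in control.

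HNRNPU, which encodes a scaffold protein of nuclear RNA and chromatin, had 334, 227 and 265 CPM in HS_Lasp, 375, 265 and 174 CPM in HS, and 246 CPM in control. HNRNPD, a regulator of mRNA decay, had 74.3, 36.8 and 66.3 CPM in HS_Lasp, 37.3, 63.8 and 35.1 CPM in HS, and 38.1 CPM in control. In neither gene did the groups separate. HNRNPM and HNRNPR, RNA binders of moderate level, likewise met in all groups, with 54.3 to 78.6 CPM in HS_Lasp, 48.1 to 69.0 CPM in HS and 61.3 CPM in control for HNRNPM. Among relatives, HNRNPC had 189, 190 and 190 CPM in HS_Lasp, 124, 167 and 143 CPM in HS, and 201 CPM in control. HNRNPAB had 57.4, 55.2 and 74.7 CPM in HS_Lasp, 35.9, 17.6 and 51.8 CPM in HS, and 60.2 CPM in control, with an unadjusted p of 0.0378 and an adjusted p of 0.738 in the edgeR test of HS_Lasp against HS. HNRNPAB overlaps PHYKPL on the opposite strand, which was counted at 0.487 CPM or less. HNRNPC and HNRNPAB shared with HNRNPDL a lower HS level and separate HS_Lasp and HS ranges, a likeness noticed after the values were seen. Among the 11 relatives, SNRPD2 was separate as well, in the other direction, with every HS_Lasp library below every HS library.

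**Figure D3:**
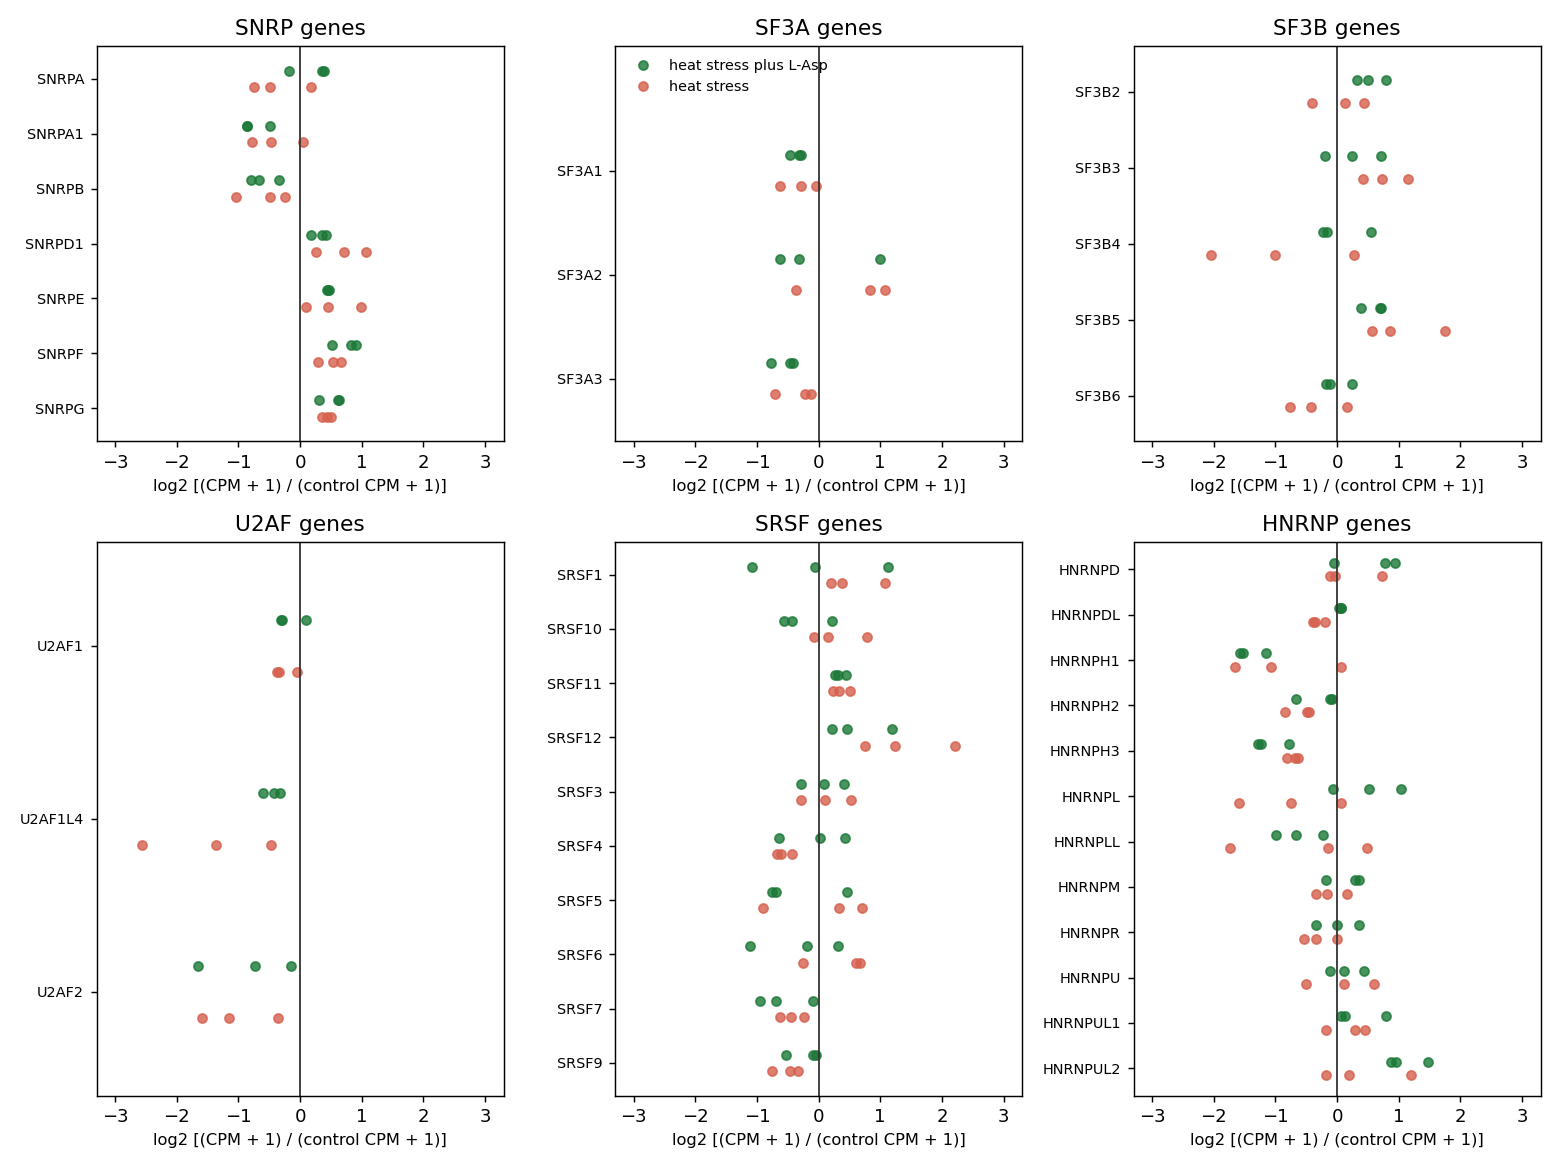
Log2 ratio of each library to the averaged control, (CPM + 1) over (control CPM + 1), for the genes of each family, with heat stress plus L-Asp above heat stress for each gene and 3 points each; the line at 0 is the control. SNRPD1, SNRPE, SNRPF and SNRPG sit right of the line in all 6 libraries and U2AF2, U2AF1L4, SF3A3 and HNRNPH3 left of it.

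Read as a whole, the set did not move to one side. In HS against control, 19 of the 40 genes had a log2 difference above 0 (all genes: 50.1%) and the median over the set was -0.17, against 0.00 over all tested genes; without control replicate 1 the median of the set was -0.05, and without HS replicate 2 it was -0.11. In HS_Lasp against HS, 20 of 40 were above 0 (all genes: 49%), with a median of 0.00 against -0.01. In HS_Lasp against control, 22 of 40 were above 0 (all genes: 50.5%), with a median of 0.08 against 0.01; the median of the set was 0.17 without HS_Lasp replicate 2, 0.04 without HS_Lasp replicate 1 and 0.03 without HS_Lasp replicate 3. The family medians of HS against control ran from -0.98 for U2AF, -0.32 for SF3A and -0.27 for HNRNP to 0.09 for SF3B, 0.27 for SRSF and 0.44 for SNRP.

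Counts of genes whose libraries all lay on one side of control lay near or above the share of the whole table, and no difference from that share was tested. Replicates of the splicing genes were tighter than those of the table (values below), and these counts make no allowance for that. In HS, 9 of the 40 were above control in all libraries, where 17.3% of tested genes were, and 12 were below, where 25% were (either side: 42.2%). In HS_Lasp, 11 were above control, where 19% of tested genes were, and 12 were below, where 26% were (either side: 45%). Both heated groups lay above control in 7 genes (SNRPD1, SNRPE, SNRPF, SNRPG, SF3B5, SRSF11 and SRSF12; all genes: 7.84%) and below it in 9 (HNRNPH2, HNRNPH3, SF3A1, SF3A3, SNRPB, SRSF7, SRSF9, U2AF1L4 and U2AF2; all genes: 11.8%). The heated groups share the control library, so these 2 counts are not independent. HS_Lasp and HS did not meet in 1 gene, higher in HS_Lasp, where 6.31% of tested genes were higher and 5.54% lower.

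**Figure D4:**
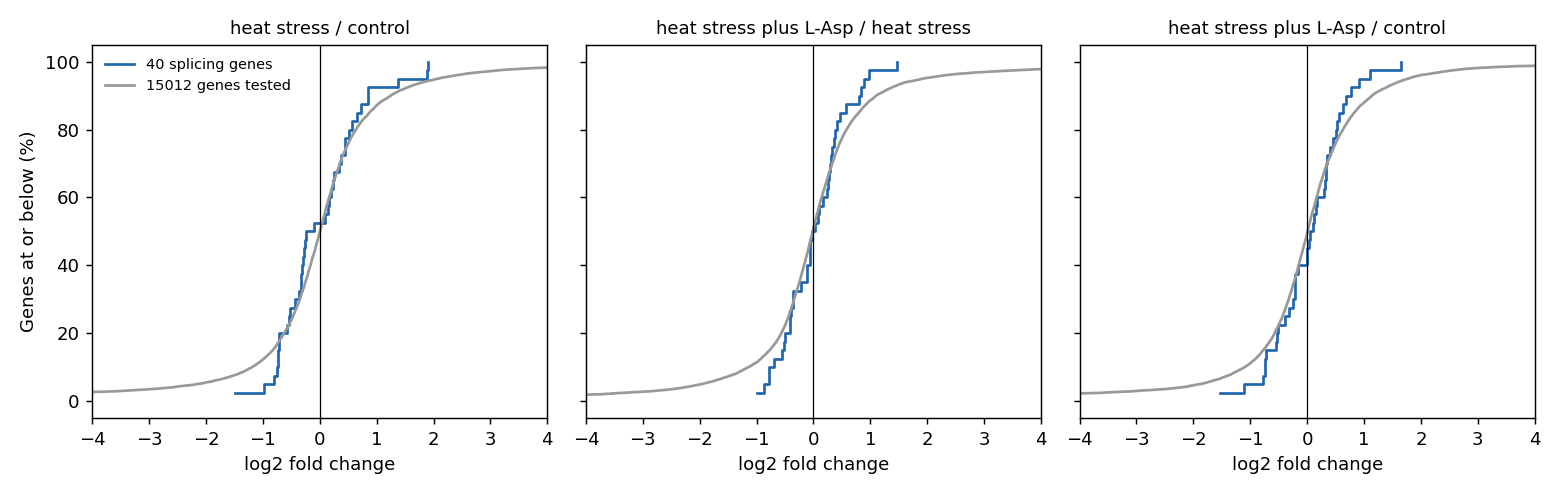
Share of genes (%) at or below each log2 fold change, for the 40 splicing genes (blue steps) and the 15012 genes tested (grey), in each comparison. The blue line crosses 0 near the grey one, with medians of -0.17, 0.00 and 0.08. It reaches less far into both tails, with no allowance for the number of genes or their level, so the tails are not compared.

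The summed levels of the families did not share an order of groups. SF3A summed to 385, 302 and 370 CPM in HS_Lasp, 469, 442 and 315 CPM in HS, and 512 CPM in control. SF3B summed to 487, 532 and 544 CPM in HS_Lasp, 349.9, 389 and 502 CPM in HS, and 445 CPM in control. The SF3A sum was thus below control in all heated libraries, whereas the SF3B sum was above control in all HS_Lasp libraries and on both sides of it in HS. SRSF summed to 548, 409 and 433 CPM in HS_Lasp, 587, 495 and 478 CPM in HS, and 506 CPM in control, and HNRNP to 877, 686 and 776 CPM in HS_Lasp, 763, 680.0 and 607 CPM in HS, and 740.2 CPM in control. Neither of these sums separated any groups. Replicates of the splicing genes were tighter than those of the table: the median coefficient of variation was 23.7% in HS_Lasp and 30.7% in HS, against 36.1% and 41.0% over all tested genes, with no allowance for level.

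**Figure D5:**
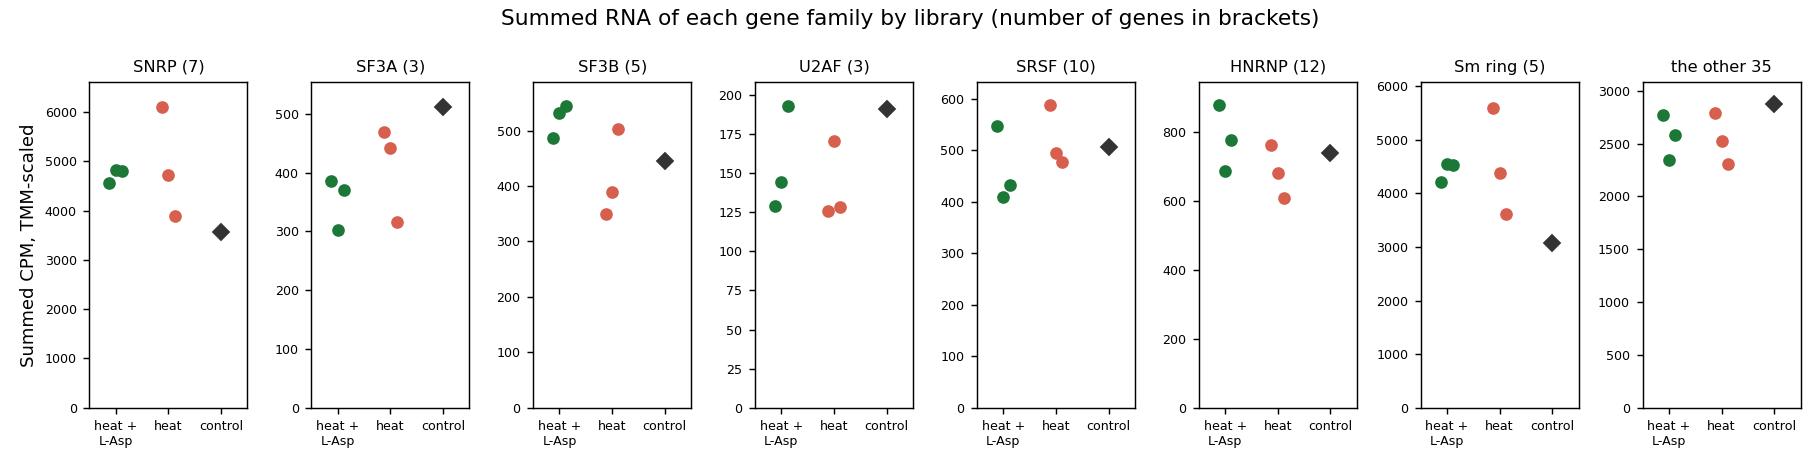
Summed TMM-scaled CPM of each family, of the 5 Sm ring genes and of the other 35, with 1 point per library for heat stress plus L-Asp and heat stress and a diamond for the averaged control; each panel has its own axis from 0. The Sm ring lies above its control of 3071 CPM in all 6 heated libraries and the other 35 genes below their control of 2878 CPM.

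Genes of the wider splicing pathway also gave 0 calls in the main edgeR test. The share called among all 15012 genes was 0% too, so this count says nothing particular about these lists. In HS against control, log2 differences were above 0 in 13 of 16 further U1 and U2 proteins and 13 of 24 genes of the tri-snRNP and minor spliceosome. They were above 0 in 6 of 8 Lsm ring genes (LSM1 to LSM8), 22 of 32 catalytic and release factors and 3 of 11 SR protein kinases and transport genes. The counts were 27 of 46 for other splicing regulators, 12 of 17 for snRNP assembly genes and 9 of 14 for exon junction genes (all genes: 50.1%). In HS_Lasp against HS the counts were 9, 12, 2, 13, 5, 27, 6 and 6 in the same lists (all genes: 49%), and in HS_Lasp against control 11, 12, 6, 17, 4, 31, 7 and 8 (all genes: 50.5%). Lsm rings are built like the Sm ring, and the 8 Lsm genes summed to 812, 968 and 826 CPM in HS_Lasp, 875, 891 and 920 CPM in HS, and 590 CPM in control, above control in all 6 heated libraries. The largest part of the HS_Lasp sum was LSM7, and the sum does not speak for all 8 genes. In all HS_Lasp libraries 2 (LSM5 and LSM7) lay above control and 2 (LSM1 and LSM4) below it, where 19% of tested genes lay above and 26% below. In all HS libraries 2 (LSM5 and LSM7) lay above and 1 (LSM4) below, where 17.3% lay above and 25% below.

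From these lists, 3 genes are given with their values, chosen after their values were seen. LSM7, an Lsm ring gene, had 480, 510.1 and 515 CPM in HS_Lasp, 408, 462 and 523 CPM in HS, and 282 CPM in control (HS against control: edgeR unadjusted p = 0.0229, adjusted p = 1). PHF5A, a subunit of the SF3B complex, had 590, 701 and 661 CPM in HS_Lasp, 571, 476 and 609 CPM in HS, and 890.1 CPM in control (HS against control: edgeR unadjusted p = 0.0209, adjusted p = 1). SRPK1, a kinase that phosphorylates SR proteins, had 298, 239 and 260 CPM in HS_Lasp, 451, 336 and 275 CPM in HS, and 574 CPM in control (HS_Lasp against control: edgeR unadjusted p = 0.0031, adjusted p = 1). LSM7 lay above control and PHF5A and SRPK1 below it in all 6 heated libraries.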

How the data were processed

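Titles gave the group and replicate number. Oligo(dT)-primed full-length cDNA was PCR-amplified and read in pairs on an Illumina instrument, per the labels' protocols, with no strand marking and no molecular identifiers, so floors and errors of counts cover counting error only. Per the file headers, the deposited table holds counts and FPKM per library. The counts were used as deposited. FPKM are the authors' deposited values and served only for levels per length. Tools named, with no role, by the submitters' processing notes are StringTie 2.1.6, HISAT2 2.2.1, cutadapt 1.9, edgeR and DESeq2; the sources used here do not state how reads were counted. A further 6 columns of per-sample values were not used. The table itself names 13893 genes, a list of gene names adds 116, and 9498 stay unnamed.

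The rounded mean of the control libraries entered as 1 library with 3 HS and 3 HS_Lasp libraries. Genes were filtered with filterByExpr on all libraries, scaled by TMM and tested with edgeR 4.0.16 (glmQLFit, glmQLFTest; R 4.3.3) with 4 residual degrees of freedom; adjusted p under 0.05 over 15012 genes was a call. CPM are TMM-scaled. DESeq2 1.42.0, other scalings and filters, all control libraries as replicates, a replicate block and leaving out each library were alternatives. The members, lists and tests were chosen with earlier results of these data known. Members with a log2 difference are, in each comparison and direction, among the 6 members of smallest p with at least 10 CPM; levels are given for the 2 highest of each family and for all SF3A, SF3B and U2AF genes. Other members, and genes outside the set (SNRPD2, given with log2 differences, among them), were chosen after their values were seen. A planned search for genes of like pattern is not reported.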

Additional observations from a re-analysis of the deposited data

How the results depend on the processing

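The calls rest on how the control is entered and on the test used. With the 3 control libraries as replicates, edgeR called 433 genes for HS against control, 2 for HS_Lasp against HS and 269 for HS_Lasp against control; 2 of the 40 splicing genes, SNRPF and HNRNPH3, were called in the last and 0 in the others. With the replicate number as a block the edgeR counts were 378, 0 and 223. For both comparisons with control this fit also entered the 3 control libraries as replicates, so it is not a separate check. It called the same 2 splicing genes for HS_Lasp against control (SNRPF 0.77, adjusted p = 0.0482, and HNRNPH3 -1.12, adjusted p = 0.0387). The numbers gave no clear sign of pairing: same-numbered HS_Lasp and HS libraries had correlations of deviations of 0.05, -0.02 and 0.01, and not every library correlated best with its own number. With 3 libraries a group, these values cannot show whether same-numbered libraries shared an origin. DESeq2, run with the averaged control and without the filter on low counts, called 172, 183 and 64 genes, and the 183 belong to a comparison that does not use control. In edgeR with the averaged control, no filter on low counts gave 9, 2 and 3 calls. The filter on 7 libraries gave 2 for HS_Lasp against HS. Leaving out 1 library gave 0 to 1 calls for HS against control, 0 to 3 for HS_Lasp against HS and 0 to 1 for HS_Lasp against control, with 0 splicing genes in each. The median log2 difference of the 40 genes for HS against control was -0.135 with median-of-ratios scaling, -0.186 without mitochondrial genes, -0.19 with no filter and with the filter on 7 libraries, -0.214 with a mean count of at least 50, -0.136 in DESeq2, and -0.181 to -0.0492 with 1 library left out, the smallest of these without control replicate 1. Why these values moved was not tested. Of 612 values for 36 named log2 differences under the alternatives, 608 kept direction and side of the threshold, 4 passed it (SNRPF and HNRNPH3 as above) and 0 reversed. The 36 were chosen for their small p in the main fit of the same data, which made reversals unlikely from the start. None passed in that fit, so staying on that side was the default, and the tally does not measure how firm the values are. For HS against control, edgeR called the relative SNRPD2 with 3 control replicates (1.30, adjusted p = 0.00556), also with the block added (1.28, adjusted p = 0.00689). With 1 averaged control DESeq2 called it (1.33, adjusted p = 0.0205) and edgeR did not.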
